A study of Mus musculus with 12 samples.

Results

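Cytosolic ribosomal protein genes encode the protein components of the small and large subunits of the ribosome outside mitochondria. Members were the probe sets with 1 gene symbol that named an Rpl or Rps gene, Rplp0, Rplp1, Rplp2 or Rpsa, and neither a pseudogene nor an S6 kinase. The probe set with the highest mean log2 signal stood for each gene. This gave 46 genes of 18193 on the array, 22 of the small and 24 of the large subunit, from 100 probe sets. Of these, 42 (21 per subunit) passed a filter on dim probe sets and were tested. Rpl37, Rpl3l, Rpl39l and Rps16 did not pass, with signals of 1 to 59 on all arrays. The mouse gene table lists 83 protein-coding genes under these names. The other 37 of them, Rpl3, Rpl10, Rpl10l, Rpl36a, Rpl36al and Rplp1 included, had no probe set naming them alone and were not analysed here. A further 110 probe sets naming several symbols, among them a ribosomal protein, were used only in aggregate.

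The samples were prostate epithelial cells of C57BL/6 male mice, hybridized to 12 Affymetrix arrays, 3 in each of 4 groups. Castrated luminal and castrated basal cells came from adult males whose testes were removed at 8 weeks of age and whose prostates were taken 4 weeks later. Intact luminal and intact basal cells came from paired adult males, also 8 weeks old at the start, that were left intact. All cells were lineage-negative and EpCAM-positive, with low CD49f on luminal and high CD49f on basal cells. Replicates were separate sets of animals, and how many animals each set pooled is not given in the sources used here. Sorted RNA was amplified before labelling. In such bulk samples, fewer cells of a type and less RNA per cell cannot be told apart.

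A ribosome carries 1 copy of most of these proteins, and their messenger RNAs are among the most abundant of a growing cell. Those messenger RNAs typically begin with a C followed by a run of pyrimidines, the 5' terminal oligopyrimidine (TOP) motif, through which mTORC1 adjusts their translation. Ribosome production also needs ribosomal RNA synthesis by RNA polymerase I and many assembly factors, a programme that MYC drives. In the prostate, basal cells lie beneath luminal cells, and luminal cells make the androgen-dependent secretions.

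The annotated starts of members were searched for the TOP letters, because genes with that motif are regulated together. The 30-base windows shown run from 20 bases before the annotated RefSeq start (GRCm38.p6) to 10 bases from it onward, 5' to 3' on the gene's strand, and capitals mark the longest run of C and T. Rpl35, Rpl38, Rplp2, Rps10, Rps18 and Rps6 have the motif at the start, as do Rpl14 and Rps27, whose windows are not shown. Rps28, Rpsa and Rps27l, shown for contrast, do not have it.
Rpl35 (chr2:39005122-39005151, minus strand): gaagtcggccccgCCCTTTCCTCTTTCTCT
Rpl38 (chr11:114668560-114668589, plus strand): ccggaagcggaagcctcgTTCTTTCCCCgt
Rplp2 (chr7:141447631-141447660, plus strand): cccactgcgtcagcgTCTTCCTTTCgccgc
Rps10 (chr17:27635235-27635264, minus strand): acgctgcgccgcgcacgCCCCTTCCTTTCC
Rps18 (chr17:33955656-33955685, minus strand): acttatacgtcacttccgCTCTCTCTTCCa
Rps6 (chr4:86857358-86857387, minus strand): gggttaagcggaagtcgggCCTCTTTTTCg
Rps28 (chr17:33824553-33824582, minus strand): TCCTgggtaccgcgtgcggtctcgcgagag
Rpsa (chr9:120127746-120127775, plus strand): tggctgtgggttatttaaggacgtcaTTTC
Rps27l (chr9:66946066-66946095, plus strand, the first of 2 starts): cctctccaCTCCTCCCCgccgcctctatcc

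RefSeq starts were found for 41 of the 46 genes, 49 starts in all. A C at the start followed by at least 4 letters C or T was present at 8 of them (16.3%), against 2.51% of 32851 starts of all genes. A C followed by at least 5 letters C or T within 20 bases on either side of the start was present on the gene's strand at 28 of 49 (57.1%), against 29.4% of all starts. On the opposite strand the same letters were present at 14.3% of the members' starts and 32.3% of all starts. A match describes these letters at an annotated start, which may differ from the start used in prostate cells, and overlapping matches were counted once per start.

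The sort labels were checked against summed markers of luminal and basal cells, and each sum was higher on all arrays of its own cell type. The 10 basal markers summed to 12197 to 14563 signal units on luminal arrays and to 100145 to 168747 on basal arrays, and the 8 measured luminal markers to 105688 to 198411 and 70262 to 100830. Not every luminal marker followed its sum in castrated mice. Krt18 averaged 33644 in luminal and 38750 in basal cells, and Tmprss2 averaged 4050 and 5578. Krt8, Cd24a, Hoxb13, Pbsn, Cdh1 and Cldn3 were higher in castrated luminal than in castrated basal cells. Markers of other cells moved with the groups. The 8 fibroblast markers summed to 6596 to 11248 in intact luminal, 515 to 802 in castrated luminal, 36689 to 44999 in intact basal and 21789 to 27724 in castrated basal cells. The 8 leukocyte markers, of which Cd52 made up most in intact luminal cells, summed to 10330 to 12171, 1562 to 4855, 465 to 1208 and 2206 to 4654. Cd52 averaged 10290 in intact and 320 in castrated luminal cells, whereas Cd74 averaged 338 and 2674. Cd74 made up most of the sum in castrated luminal and castrated basal cells (1998 in the latter). The 5 secretory genes of the seminal vesicle list summed to 170687 to 296200, 4145 to 10591, 22408 to 34473 and 128 to 622, and the 4 proliferation markers to 1743 to 2174 in intact luminal cells and 70 to 695 in the other groups. Dcn and Sparc made up most of the fibroblast sum in intact basal cells (means 21080 and 14792). In castrated basal cells Dcn alone made up most of it (22092), while Lum, Pdgfra, Col1a1, Col1a2 and Col3a1 averaged 27 to 166. Sparc averaged 1108 there, and Fbln1 averaged 669, above its 453 in intact basal cells. No marker's group mean was exactly 0. The part of these markers in the results given here was not tested. The ratio of the 3' to the 5' control probe set was 4.18 to 8.70 for Gapdh, and its ranges overlapped among the groups. The same ratio for Actb was 0.78 to 0.95 in intact luminal, 1.08 to 1.11 in castrated luminal, 0.94 to 0.99 in intact basal and 0.94 to 1.08 in castrated basal cells. For Actb the intact and castrated luminal arrays thus did not overlap. Castrated luminal and castrated basal arrays did not overlap either, with 1.079 as the lowest luminal and 1.077 as the highest basal ratio. The part of these differences in the luminal castration results and in the luminal against basal results of castrated mice was not tested.

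Ribosomal protein genes gave some of the brightest probe sets on every array. The signal of the median member was 21141 to 24110 in intact luminal cells, 16623 to 18721 in castrated luminal cells, 29174 to 34100 in intact basal cells and 26599 to 34194 in castrated basal cells. Luminal arrays therefore did not overlap with basal ones, and castrated luminal arrays were the lowest. As a rank, which does not depend on the scaling of an array, the median member lay at the 99.41 to 99.52 percentile in intact luminal, 99.47 to 99.56 in castrated luminal, 99.63 to 99.67 in intact basal and 99.64 in all 3 castrated basal arrays. Basal arrays again lay above all luminal ones, but intact and castrated luminal arrays overlapped. The 42 genes held 3.99% to 4.30%, 3.23% to 3.68%, 5.21% to 6.00% and 4.84% to 5.83% of the summed signal of all genes tested in the same order of groups. The bright end of the arrays moved too: the signal exceeded by the brightest 0.1% of probe sets was 42097 to 50004 in intact luminal cells and 25080 to 29913 in castrated luminal cells, against 44090 to 51288 and 38625 to 54581 in intact and castrated basal cells.

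**Figure D1:**
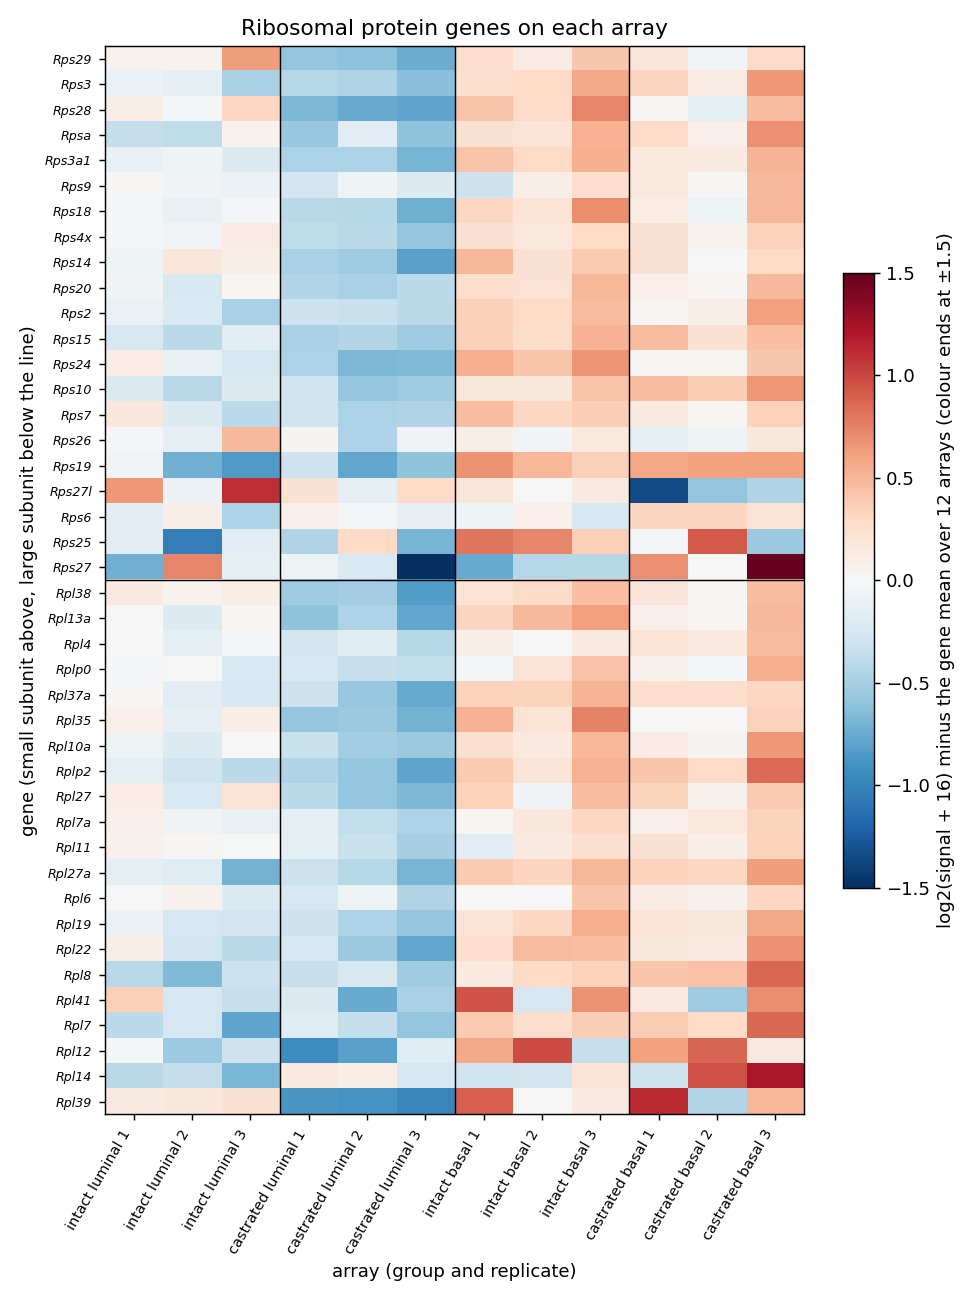
Colour shows log2 of signal plus 16 minus the gene's own mean over 12 arrays, for 42 ribosomal protein genes (rows, small subunit above the line) on each array (columns, by group and replicate). Most genes are red on the 6 basal arrays and blue on the 3 castrated luminal arrays, while Rps27l, Rps26, Rps6, Rps25, Rps27 and Rpl14 have other patterns.

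**Figure D2:**
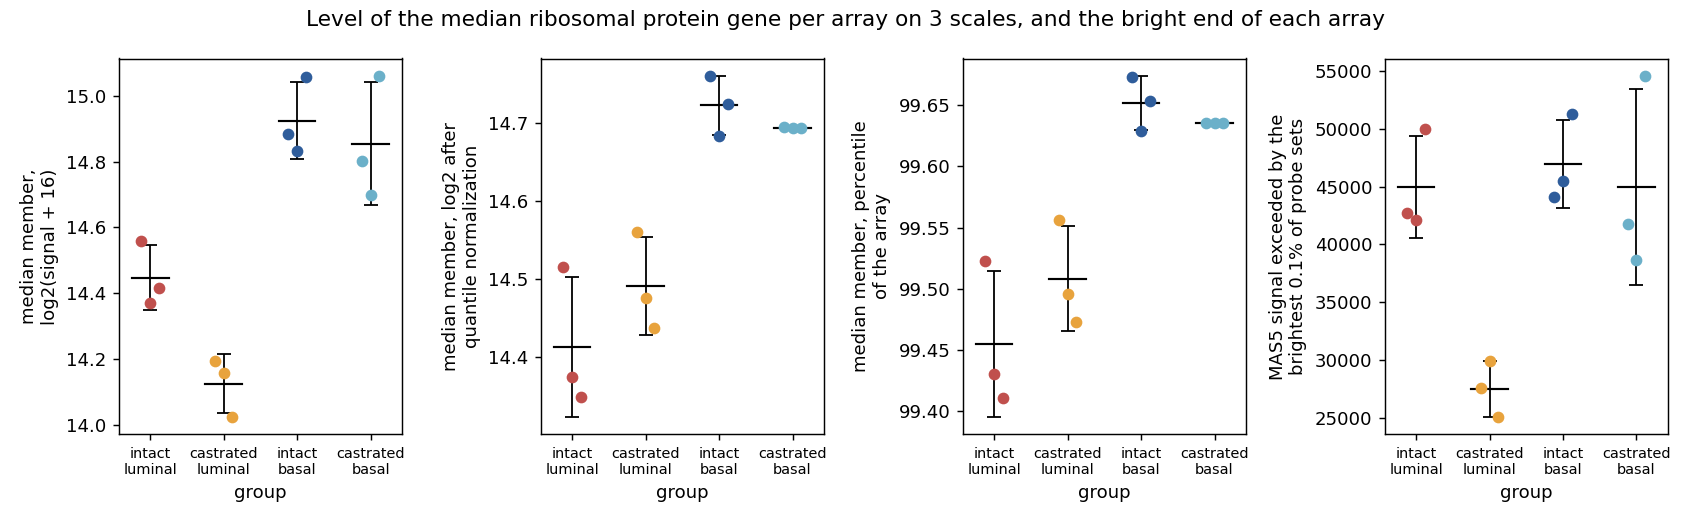
Each point is 1 array, lines are group means and error bars are SD (n = 3). From left to right, the y axes give the median member's log2 of signal plus 16, the same after quantile normalization, its percentile among the array's probe sets, and the MAS5 signal exceeded by the brightest 0.1% of probe sets; castrated luminal arrays are lowest in the first and last panel but not in the middle ones.

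Individual probe sets covered a wide range of brightness, which is not a range of RNA levels because probes differ in their response. Rps29, Rpl38 and Rpl13a had the brightest probe sets, with geometric mean signals of 46064, 39286 and 38266. Rps27 (218), Rpl39 (702) and Rps25 (918) had the dimmest of those tested. Within groups, log2 values varied least for Rps4x, Rps15 and Rpl4, with SDs of 0.11, 0.11 and 0.12, and most for Rps27 (1.09), Rps25 (0.53) and Rpl41 (0.50). Of the 42 probe sets, 35 had a geometric mean signal of at least 5000, and the other 7 were Rps6, Rpl14, Rpl39, Rps25, Rpl12, Rps27 and Rps27l. In all, 31 carry a name suffix (_a_at, _s_at or _x_at) that marks possible matches to several transcripts or genes, so copies of near-identical sequence cannot be fully separated.

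In intact mice, ribosomal protein genes were lower in luminal than in basal cells. Of the 42 genes, 19 were lower and 0 higher at an adjusted p under 0.05 in limma, while 8.45% of all 14645 genes tested were lower and 11% higher. Luminal values lay below basal values without overlap for 27 of 42 genes, compared with 14% of all genes. The median difference of the members was -0.47 on the log2(signal + 16) scale, beside 0.07 over all genes, and 39 of 42 differences were negative. Both subunits took part, with 10 of 21 small-subunit and 9 of 21 large-subunit genes lower and medians of -0.45 and -0.48.

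Rps19, a small-subunit protein mutated in human Diamond-Blackfan anaemia, had the largest called difference. Its signals were 9416, 5848 and 5347 in intact luminal cells and 15508, 13641 and 12403 in intact basal cells. All luminal values lay below all basal ones, and the gene was 51.7% lower in luminal cells (log2 difference -1.05 ± 0.21 SE, limma adjusted p = 0.00174). Rpl7, a large-subunit protein, read 10660, 11584 and 8039 against 18285, 16810 and 18109 (log2 difference -0.83 ± 0.18, limma adjusted p = 0.00416). Rpl27a, another protein of the large subunit, read 20849, 20314 and 14102 against 30472, 28927 and 32725 (-0.76 ± 0.16, limma adjusted p = 0.00301). Rpl8, which lies near the peptidyl transferase centre, read 11673, 9892 and 12500 against 17228, 19296 and 19896 (-0.73 ± 0.16, limma adjusted p = 0.00388). None of these groups overlapped.

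The difference did not extend to every member. Rps29 read 47803, 47879 and 71234 in intact luminal cells and 55383, 50056 and 60799 in intact basal cells, so the groups overlapped (log2 difference -0.02 ± 0.14). Rpl11, which binds MDM2 when ribosome assembly is disturbed, differed by -0.04 ± 0.14, Rps9 by -0.05 ± 0.15 and Rps26 by 0.04 ± 0.20, and none of them passed. With quantile normalization, 15 of the 42 genes were lower and 0 higher (8.69% and 11.4% of all genes), all 15 among the 19, with a median of -0.33. Median centring left 8 genes lower (7.49% of all genes). Without the intensity trend in the variance model only Rps19 passed (6.84% of all genes were lower), and leaving out intact basal replicate 3 or intact luminal replicate 2 gave 12 calls each.

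The same comparison in castrated mice gave more calls. Of 42 genes, 33 were lower in luminal than in basal cells and 1, Rps27l, was higher, where 7.22% of all genes were lower and 11.2% higher. Luminal values lay below basal ones without overlap for 37 genes, compared with 17.5% of all genes, and above them for Rps27l, compared with 23.6% of all genes. The members' median difference was -0.78, beside 0.08 over all genes. In the large subunit 18 of 21 genes were lower (median -0.81) and in the small subunit 15 of 21 (median -0.76). The members that did not pass were Rps27, Rpl14, Rpl41, Rpl6, Rps9, Rps25, Rps6 and Rps26.

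Rplp2, an acidic protein of the stalk that recruits translation factors, had the lowest adjusted p. Its signals were 21552, 19672 and 17122 in castrated luminal cells and 39323, 35885 and 53300 in castrated basal cells, without overlap. It was 54.1% lower in luminal cells (log2 difference -1.12 ± 0.15 SE, limma adjusted p = 6.29e-05). Rps19 read 7779, 5634 and 6342 in luminal and 14530, 14677 and 14686 in basal cells, a log2 difference of -1.16 ± 0.21 (limma adjusted p = 0.000753) that resembled the one in intact mice. Larger differences came from dimmer probe sets. Rpl39, a small protein of the exit tunnel, read 376, 370 and 347 in luminal and 1542, 515 and 994 in basal cells (log2 difference -1.31 ± 0.42, limma adjusted p = 0.0399). Rpl12, at the base of the stalk, read 677, 735 and 1147 against 1989, 2395 and 1436 (-1.18 ± 0.38, limma adjusted p = 0.0378). Neither pair of groups overlapped, although the Rpl39 call was lost in 7 and the Rpl12 call in 4 of the 12 fits that left out 1 array.

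Rps27l, a paralogue of Rps27 that p53 activates, went the other way. Its signals were 3743, 2920 and 3930 in castrated luminal cells and 1251, 2111 and 2325 in castrated basal cells, so that all luminal values were higher. The log2 difference was 0.93 ± 0.31 (1.90-fold, limma adjusted p = 0.0455), and the call was lost in 8 of 12 fits with 1 array left out. In intact mice luminal values of 5020, 2995 and 6900 overlapped with basal values of 3627, 3215 and 3536 (log2 difference 0.44 ± 0.31, limma adjusted p = 0.36). Cdkn1a, a cell cycle inhibitor that p53 also activates, differed by -2.61 in intact and -2.46 in castrated mice (limma adjusted p = 1.01e-07 and 3.03e-07). Mdm2, the ligase that degrades p53, differed by -0.97 and -0.73 (limma adjusted p = 0.00477 and 0.0288), the latter without a call after median centring (limma adjusted p = 0.0924). Sesn1, another p53 target, differed by -0.53 and 0.47 and did not pass. Sesn2 read 2178, 1878 and 1555 in castrated luminal and 7711, 6033 and 9962 in castrated basal cells, without overlap. Its luminal and basal values overlapped in intact mice. These genes are not a full list of p53 targets.

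The size of the difference in castrated mice depended on the scaling. With quantile normalization 9 genes remained lower, with Rps27l higher (6.28% and 9.94% of all genes), all 10 among the 34, and the median was -0.26. The 9 were Rplp2, Rps15, Rpl8, Rpl39, Rps28, Rpl7, Rps10, Rpl12 and Rps19. Under quantile normalization the medians in intact (-0.33) and castrated mice (-0.26) were close, whereas as deposited they were -0.47 and -0.78. Median centring gave 26 genes lower (6.15% of all genes), and omitting the intensity trend left Rplp2, Rpl8, Rps10 and Rps19 (5.47% of all genes lower).

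**Figure D3:**
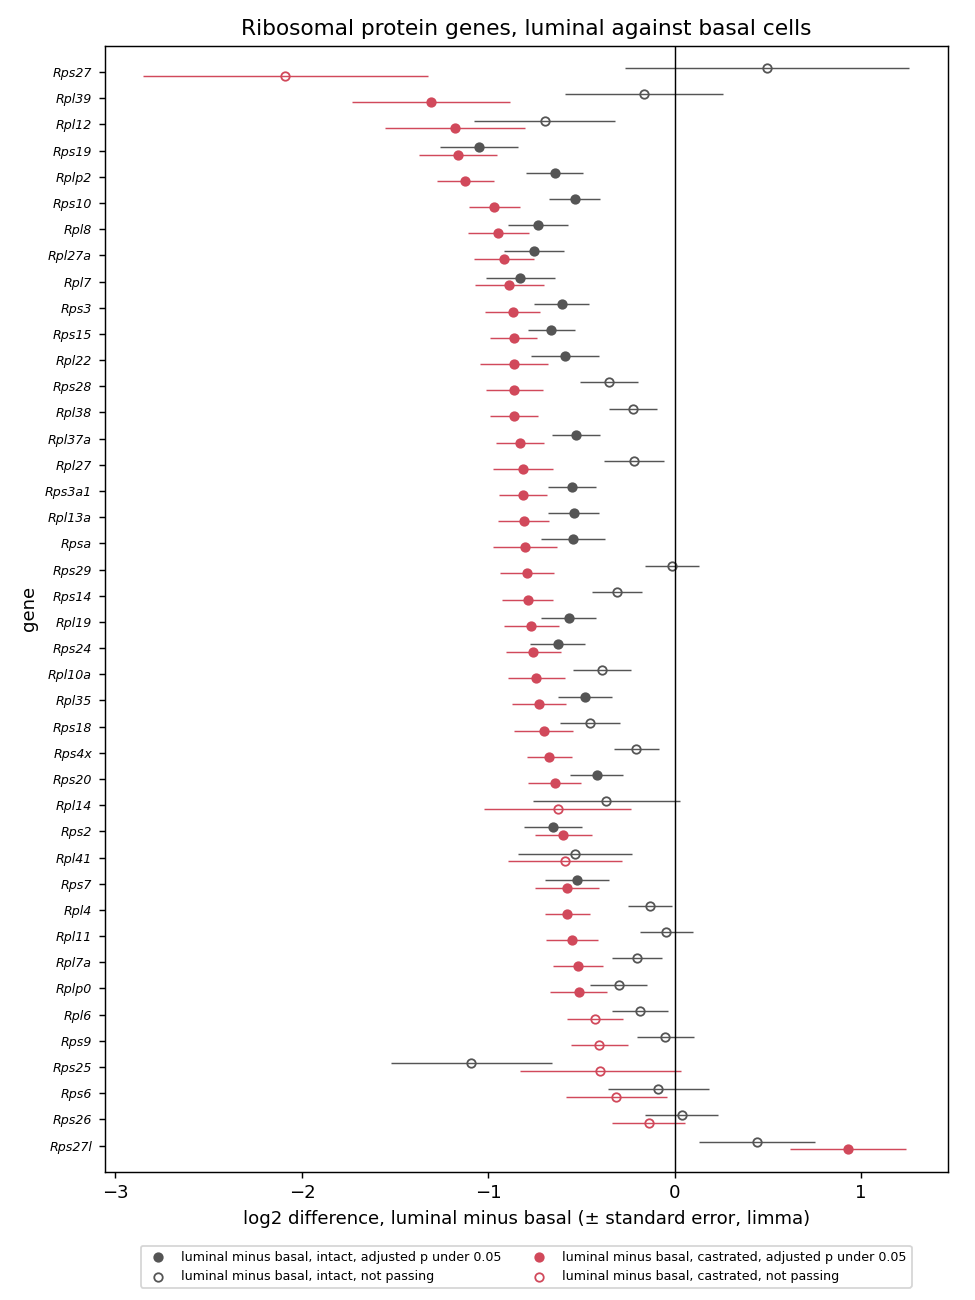
Points give each gene's log2 difference, luminal minus basal, with its standard error from limma, in intact (grey) and castrated (red) mice; filled points passed at an adjusted p under 0.05. Most genes lie left of 0 in both, further left in castrated mice, and Rps27l lies to the right.

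In luminal cells, part of the set fell after castration on the deposited scale, a direction that 2 of the other scalings did not keep. Of 42 genes, 9 were lower and 0 higher in castrated than in intact luminal cells, where 2.96% of all genes were lower and 2.9% higher. They were Rps29, Rps28, Rpl38, Rps14, Rpl35, Rpl27, Rpl13a, Rps24 and Rps4x, with log2 differences of -0.89 to -0.49. Castrated values lay below intact ones without overlap for 22 of 42 genes, compared with 16.8% of all genes. The members' median log2 difference was -0.33, beside -0.09 over all genes.

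The 9 genes have different places in the ribosome. Rps29, a zinc-binding protein of the small subunit, read 47803, 47879 and 71234 in intact and 30590, 30042 and 27578 in castrated luminal cells. The groups were apart and the gene was 46.2% lower (log2 difference -0.89 ± 0.14 SE, limma adjusted p = 0.00118), but its 2 other probe sets differed by -0.37 and -0.46 and did not pass. Rps28, which sits at the exit of the mRNA channel, read 36179, 33482 and 41913 against 21256, 20078 and 19582, again without overlap. Its log2 difference was -0.87 ± 0.15 (limma adjusted p = 0.0023), with -0.83 and -0.76 at its other probe sets, both of which passed. Rpl38, a large-subunit protein that in mouse embryos is needed for translation of a subset of Hox messenger RNAs, read 43113, 40593 and 41936 against 27104, 27266 and 21929. These groups did not overlap (log2 difference -0.73 ± 0.13, limma adjusted p = 0.00226). Rps14, a small-subunit protein, read 26006, 30831 and 28857 against 19374, 18836 and 15494, without overlap (-0.68 ± 0.13, limma adjusted p = 0.00554), and its other probe set gave -0.67.

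Quantile normalization, which gives every array the same distribution of values and so removes the lower bright end of the castrated luminal arrays, gave a median of 0.066 with 1 gene lower and 2 higher (2.44% and 3.38% of all genes). The lower one was Rps28 (-0.33, limma adjusted p = 0.0494), and the higher ones were Rpl4 (0.39, limma adjusted p = 0.0126) and Rps9 (0.45, limma adjusted p = 0.0263), large- and small-subunit proteins respectively. Rps29 differed by -0.02 there. Saturation of the brightest probe sets, which would compress their differences, was not tested, because probe-level scanner files were not used here. Median centring gave a median of 0.048 and 0 calls (1.72% of all genes lower and 6.97% higher), with 4 genes at an unadjusted p under 0.05 in limma, beside 22.3% of all genes; it moved the median of all genes from -0.09 to 0.29, and quantile normalization moved it to 0.04. Relative to all genes, the members' median was -0.24 as deposited and 0.03 after quantile normalization. Median centring shifts all genes of an array alike, so it cannot change this relative value. Without the intensity trend 0 members passed in limma, where 2.14% of all genes were lower, and 5 had an unadjusted p under 0.05, beside 18.3% of all genes. Calls fell to 4 without castrated luminal replicate 3, and to 5 without castrated luminal replicate 1, intact luminal replicate 1 or intact luminal replicate 3.

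**Figure D4:**
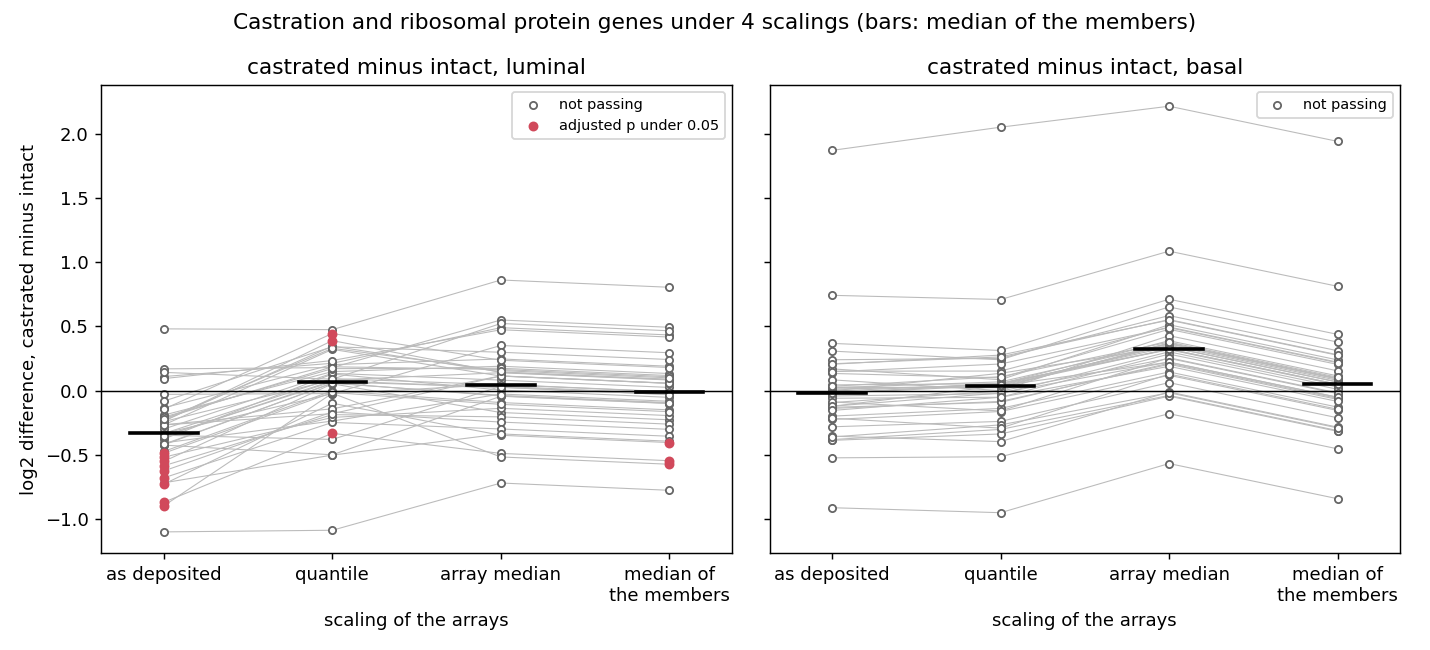
Each line follows 1 ribosomal protein gene through 4 scalings of the arrays (x axis), with its log2 difference, castrated minus intact, on the y axis, for luminal (left) and basal cells (right); filled points passed at an adjusted p under 0.05 and bars are medians. In luminal cells the median moves from -0.33 as deposited to 0.066 with quantile normalization, and in basal cells no gene passed under these 4 scalings.

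In basal cells, no member passed in either direction (1.12% of all genes were higher and 1.5% lower). By limma, 5 of 42 had an unadjusted p under 0.05, a share of 11.9% beside 17.8% of all genes. The median difference was -0.02, beside -0.11 over all genes, with 18 genes positive and 24 negative. Median centring moved the median to 0.32, together with that of all genes, without a call. The largest negative difference was that of Rps27l, whose intact values of 3627, 3215 and 3536 lay above the castrated values of 1251, 2111 and 2325 without overlap (log2 difference -0.91 ± 0.31, limma adjusted p = 0.128). The largest positive one was that of Rps27, a zinc-binding small-subunit protein, which read 122, 158 and 158 in intact and 361, 217 and 2318 in castrated basal cells. One castrated array was far above the others, and the difference of 1.87 ± 0.76 did not pass (limma adjusted p = 0.207).

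The difference between the castration effects in luminal and basal cells was tested directly. No member passed this interaction (1.15% of all genes passed in either direction), and 11 of 42 (26.2%) had an unadjusted p under 0.05 in limma, beside 12.7% of all genes. The median interaction was -0.26 as deposited, with 39 of 42 negative, and 0.11 with quantile normalization, with 16 of 42 negative. Rps29 had the lowest adjusted p (log2 interaction -0.77 ± 0.20, limma adjusted p = 0.0833). For Rpl11, Rpl4, Rps10, Rps27 and Rps9, all 3 castrated luminal values lay below the intact luminal mean and all 3 castrated basal values above the intact basal mean. Their interactions were -0.51, -0.44, -0.43, -2.59 and -0.35, and none passed (limma adjusted p = 0.265 to 0.529). The share of all genes with such a pattern was not determined. The pattern also depended on the scaling, as Rpl4 and Rps9 passed as higher in castrated than in intact luminal cells with quantile normalization.

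**Figure D5:**
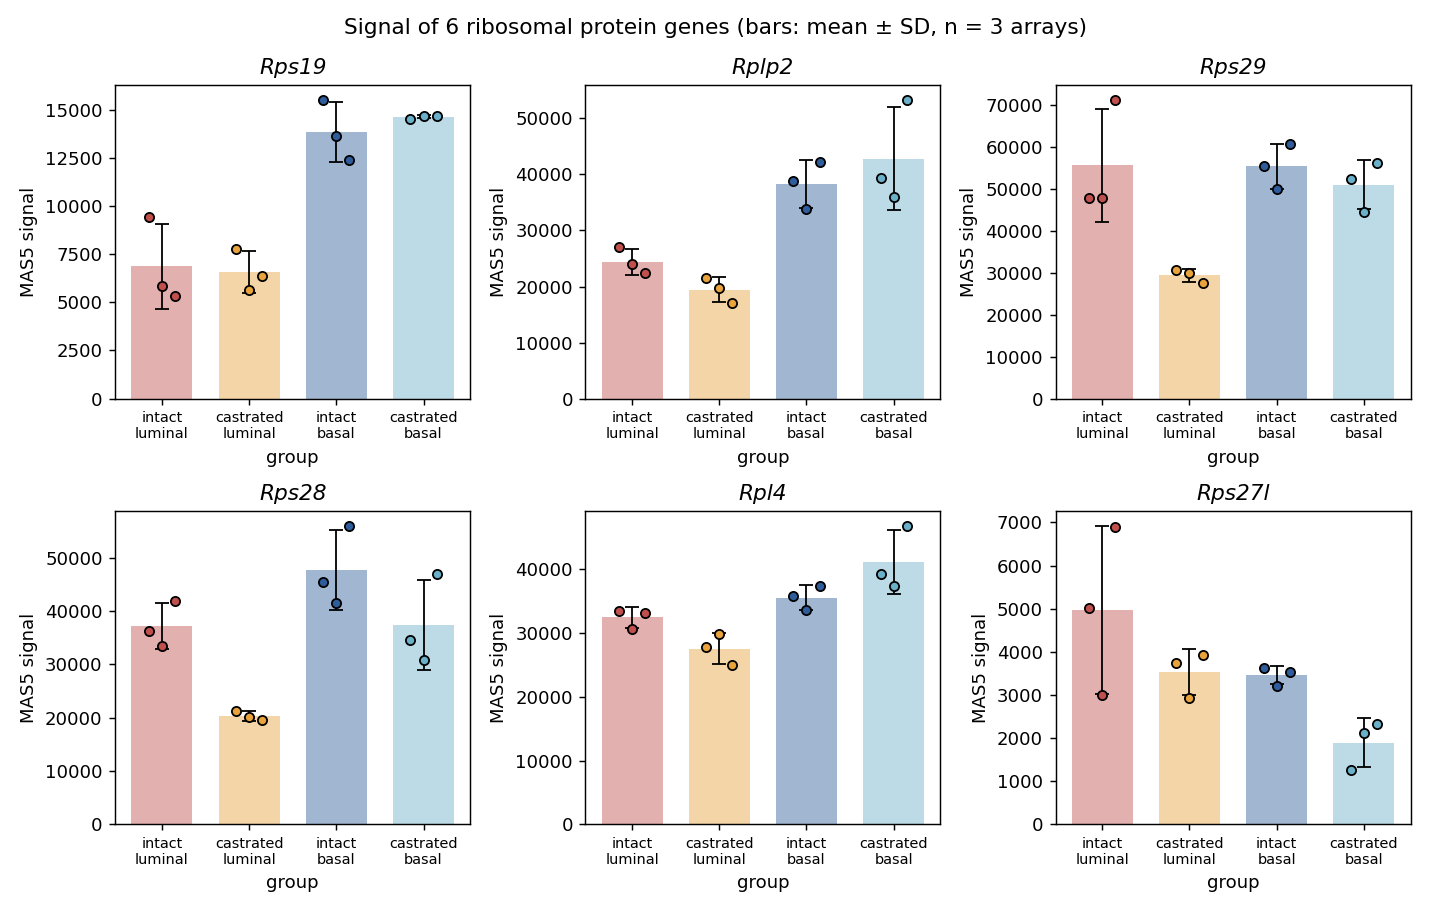
Bars are mean MAS5 signal with SD (n = 3 arrays) and points are arrays, for 6 ribosomal protein genes in 4 groups. Rps19 and Rplp2 are higher in both basal groups, Rps29 and Rps28 are lowest in castrated luminal cells, Rpl4 stays between 25021 and 46859, and Rps27l is lowest in castrated basal cells.

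Differences among the members themselves were examined by centring each array on the median of the 42 genes, a setting chosen after seeing the data, in which only departures from the set's own shift remain. In intact mice 5 genes were then higher in luminal cells and 0 lower (20.6% and 4.55% of all genes): Rps27l (0.92), Rps29 (0.46), Rpl11 (0.43), Rps9 (0.43) and Rpl4 (0.35). In castrated mice Rps27l (1.66, limma adjusted p = 0.000692) and Rps26 (0.59, limma adjusted p = 0.0301) were higher and Rplp2 (-0.39, limma adjusted p = 0.0134) lower, where 29.6% of all genes were higher and 2.94% lower. After castration in luminal cells Rps29 (-0.57), Rps28 (-0.54) and Rpl38 (-0.40) were lower, with limma adjusted p of 0.015, 0.00931 and 0.018, where 1.89% of all genes were lower. No member passed in limma after castration in basal cells or in the interaction on this scale, where 9 and 3 had an unadjusted p under 0.05, beside 17% and 13.1% of all genes.

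Members with paralogues or special roles were followed in every comparison. Rps6, the substrate of S6 kinase, read 1608, 1923 and 1298 in intact luminal, 1888, 1752 and 1640 in castrated luminal, 1706, 1891 and 1499 in intact basal and 2253, 2252 and 2066 in castrated basal cells. It passed in no comparison, and castrated basal cells were the only group above all other values. The gene has 2 probe sets. Over the alternatives run, its luminal minus basal difference in intact mice ranged from -0.95 to 0.39, against -0.09 in the main fit, without a call. Rpsa, also known as the laminin receptor precursor, was lower in luminal cells in intact (-0.54, limma adjusted p = 0.0329) and castrated mice (-0.80, limma adjusted p = 0.00302). The intact call was lost in 4 of 12 fits with 1 array left out and after median centring (limma adjusted p = 0.111), and the castrated one with quantile normalization (-0.17, limma adjusted p = 0.355). Of the stalk proteins, Rplp2 was lower in luminal cells in both, and Rplp0 in castrated mice (-0.51 ± 0.15, limma adjusted p = 0.0244), a direction that quantile normalization (0.15) and centring on the members (0.22) turned. Rps4x, encoded on the X chromosome, was lower in castrated than in intact luminal cells (-0.49 ± 0.12, limma adjusted p = 0.0232). That call was lost in 4 of 12 fits with 1 array left out, after median centring (-0.11) and with quantile normalization (-0.013). Rpl3l, of skeletal muscle and heart, and Rpl39l, of the testis, stayed at signals of 1 to 51.

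Outside the rule, Fau, whose product is processed to the ribosomal protein eS30, was lower in luminal cells in intact (-0.53, limma adjusted p = 0.0267) and castrated mice (-0.68, limma adjusted p = 0.00649). With quantile normalization the castrated difference was -0.15 (limma adjusted p = 0.47), and median centring left neither call (limma adjusted p = 0.111 and 0.0524). Rpl7l1, a paralogue of Rpl7, was higher in castrated than in intact basal cells (2.24, limma adjusted p = 0.0367). Its signals were 587, 922 and 116 in intact and 1232, 2447 and 2551 in castrated basal cells, without overlap. One intact array was far below the others, and the dependence of the call on it was not tested. Rpl22l1, a paralogue of Rpl22, passed in no comparison.

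Of 62 assembly factors of the ribosome, 14 were lower and 1 higher in intact luminal than in intact basal cells, beside 8.45% and 11% of all genes. In castrated mice 22 were lower and 2 higher, beside 7.22% and 11.2% of all genes, and the medians were -0.41 and -0.60. Nop58, a core protein of the particles that guide ribosomal RNA methylation, differed by -0.87 in intact and -1.26 in castrated mice (limma adjusted p = 0.000729 and 2.07e-05). Npm1, a nucleolar chaperone, differed by -0.47 and -0.89 (limma adjusted p = 0.014 and 9.67e-05). In castrated against intact basal cells 5 of the 62 were higher, beside 1.12% of all genes: Rrp15 (1.82), Nop14 (1.26), Tcof1 (2.12), Rrs1 (0.80) and Pes1 (1.55), with limma adjusted p of 0.0153 to 0.0465. With quantile normalization the Pes1 call was lost (limma adjusted p = 0.0552). Nop14 was also higher in castrated luminal cells (1.07, limma adjusted p = 0.0385). Of 18 RNA polymerase I and ribosomal RNA genes, 2 were lower (11.1%) and 1 higher (5.56%) in luminal than in basal cells of intact mice and 2 lower in castrated mice, where 8.45%, 11% and 7.22% of all genes were called in the same order.

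Of 28 translation factors and other genes with TOP messenger RNAs, 6 were lower in castrated than in intact luminal cells, beside 2.96% of all genes. Tpt1, a growth-related TOP gene, read 36682, 36137 and 43035 in intact and 22970, 25617 and 21230 in castrated luminal cells, without overlap (-0.73, limma adjusted p = 0.00291), and differed by -0.15 without a call under quantile normalization. The others were Eif4a2, Eif3a, Eef1a1, Eif5a and Vim. Vim had the largest fall of the list, from a mean signal of 2331 to 246 (-3.38, and -3.33 with quantile normalization). It averaged 3594 in intact and 835 in castrated basal cells, without a call there. The fibroblast marker sum also fell in luminal cells, from a mean of 8266 to 676, and its part in the Vim difference was not tested. With quantile normalization 2 were lower and 2 higher in castrated than in intact luminal cells, beside 2.44% and 3.38% of all genes. The median of the list turned from -0.14 to 0.13. In castrated mice 14 of 28 were lower in luminal than in basal cells, beside 7.22% of all genes, led by the RNA helicase Eif4a1 (-1.47, limma adjusted p = 3.81e-05). With quantile normalization 2 were lower and 1 higher, beside 6.28% and 9.94% of all genes. Of 32 growth control genes, 6 were lower (18.8%) and 3 higher (9.38%) in luminal than in basal cells of intact mice, beside 8.45% and 11% of all genes, and 9 and 3 of castrated mice, beside 7.22% and 11.2%. With quantile normalization 6 were lower and 5 higher in intact mice, beside 8.69% and 11.4% of all genes. In castrated mice 6 were lower and 3 higher on that scale, beside 6.28% and 9.94% of all genes. Myc differed by -1.05 and -0.73 (limma adjusted p = 0.000195 and 0.00384) between luminal and basal cells of intact and castrated mice (-0.34 in the latter with quantile normalization, limma adjusted p = 0.123), with luminal signals of 8268 to 11522 and basal signals of 18724 to 20148 in intact mice.

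The mitochondrial ribosome is built from a separate set of proteins. Of 76 genes for them, 9 were higher (11.8%) and 1 lower (1.32%) in luminal than in basal cells of intact mice, and 11 higher (14.5%) and 2 lower (2.63%) in castrated mice. Of all genes, 11% and 11.2% were higher, close to the shares of the 76, and 8.45% and 7.22% lower. Their medians were 0.73 and 0.74, and 0.72 and 0.60 with quantile normalization. Mrpl39 read 5043, 5255 and 5464 in intact luminal and 1072, 405 and 2361 in intact basal cells, without overlap (2.36, limma adjusted p = 0.00103). Mrpl58, a peptidyl-tRNA hydrolase of that ribosome, differed by 2.78 and 2.81 (limma adjusted p = 0.00291 and 0.00266). Mrps6 was lower, by -1.49 and -1.73.

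All 93 probe sets of the members above the filter were also tested singly, the 42 already described and 51 others of 22 genes. Of the 51, 8 were lower after castration in luminal cells, 22 were lower in luminal than in basal cells of intact mice and 33 of castrated mice, beside 2.41%, 7.66% and 6.3% of all 33810 probe sets. Probe sets of 1 gene measure the same RNA samples and are not independent of each other. Of 108 probe sets naming several symbols, 31, 37 and 73 were lower. Among 17 genes with several bright probe sets, the sign was shared by all of a gene's probe sets for 17 genes in both luminal and basal comparisons, for 15 after castration in luminal cells and for 14 in basal cells. Without the probe sets whose suffix marks several possible targets, 21 members were left, of which 7 were lower in luminal than in basal cells of intact mice and 11 of castrated mice, beside 8.39% and 6.8% of all genes. After castration in luminal cells 1 of the 21, Rpl27, was lower, beside 2.65% of all genes.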

How the data were processed

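Gene expression was measured on 12 Affymetrix arrays of sorted mouse prostate cells. Deposited values are signal intensity from MAS5 (per the submitters' processing notes), and the version used is not given in the sources used here. They were linear, and each array's mean after trimming 2% at each end was 500.003, so arrays had been scaled to 1 target, which fixes neither the median nor the bright end. Arrays hold no read depth; their number limits the precision.

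Of 45101 probe sets, 64 controls were left out, 34945 had 1 gene symbol, 932 several and 9160 none. Values were transformed as log2(signal + 16). A probe set was kept if it exceeded its array's 40th percentile on 3 or more arrays, and the brightest stood for its gene, which left 14645 of 18193 genes. A symbol that RefSeq lists as a transcribed pseudogene was dropped. The 4 groups were fitted together in limma 3.58.1 (R 4.3.3) for 5 contrasts, with a variance trend on intensity and 8 degrees of freedom left, and p-values were adjusted by Benjamini-Hochberg over all genes, at 0.05. The pipeline was tested on simulated data. Start sequences came from RefSeq (GRCm38.p6).

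Members, gene lists and the naming rule were chosen with earlier results of these data known. Named genes were the 4 largest called rises and falls per contrast, paralogues, stalk genes, Rpsa and Rps6, extremes of level and spread, and up to 3 called genes per list and direction. Rpl4, Rpl11, Rps9, Rps10, Rps26, Mdm2, Sesn1, Sesn2, Rrs1, Pes1, Eef1a1, Eif5a and Vim and the full lists of called members were named after their values were seen.

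The design text describes 3 replicate sets with paired intact animals. After removing group means, arrays of equal number correlated at -0.00723 to 0.0258 (18 pairs) and the other 36 pairs at -0.0325 to 0.0352. Replicate number was an alternative, as were quantile normalization, median centring, other constants, filters and probe set rules, array weights, no trend, 2-group fits and omitted arrays. Centring on the members and testing each probe set were added after seeing the data.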

Additional observations from a re-analysis of the deposited data

How the results depend on the processing

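The fits with the replicate number as a block, fixed or random, moved no count by over 1.5 times; the medians stayed at -0.33 and -0.02 for castration in luminal and basal cells, -0.47 and -0.78 for luminal minus basal in intact and castrated mice, and -0.26 for the interaction. Quantile normalization gave medians of 0.066, -0.33, -0.26 and 0.11 for castration in luminal cells, luminal minus basal in intact and castrated mice, and the interaction, with 3 calls in the first and 10 in the third. Median centring gave medians of 0.048 and 0.32 for castration in luminal and basal cells, with 0 calls in the first and 8 for luminal minus basal in intact mice. Without the intensity trend 0, 1 and 4 genes passed for castration in luminal cells and luminal minus basal in intact and castrated mice. Without suffixed probe sets 1, 7 and 11 passed among 21 members, fewer genes being tested, and with every probe set singly 17, 40 and 67 of 93. Centring on the members gave 3, 5 and 3 calls and medians of -0.0082, 0.0097 and -0.047, with -0.0084 for the interaction, as its construction removes the shared shift. Omitting all 4 arrays numbered 3 gave a median of -0.56 in castrated mice. Leaving out 1 array at a time gave 4 to 10, 12 to 21 and 28 to 35 calls, and medians of -0.38 to -0.24, -0.50 to -0.35 and -0.87 to -0.65, with -0.14 to 0.05 for castration in basal cells and -0.36 to -0.14 for the interaction. In castrated mice Rplp0 reversed with quantile normalization (0.15) and centring on the members (0.22), and Rps4x with the latter (0.060). Castration in basal cells and the interaction had 0 calls under every alternative run; a 2-group fit cannot give the interaction. Of 50 gene results, 21 gained or lost a call or reversed under some alternative, and 18 that were not called changed sign under at least 1. Where no construction shows it, the cause was not tested.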
